A study of Mus musculus with 4 samples.

Results

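The mouse genome carries a small family of pancreatic serine proteases that split proteins after small side chains (the elastases) or after large, mostly aromatic ones (the chymotrypsins). The 7 genes described here are the elastase genes Cela1, Cela2a, Cela3a and Cela3b, and the chymotrypsin genes Ctrb1, Ctrl and Ctrc. They were taken by symbol, as the elastase and chymotrypsin genes, out of 54532 gene identifiers in the expression files, and all 7 were found. Their Ensembl identifiers are ENSMUSG00000023031 (Cela1), ENSMUSG00000058579 (Cela2a), ENSMUSG00000078520 (Cela3a), ENSMUSG00000023433 (Cela3b), ENSMUSG00000031957 (Ctrb1), ENSMUSG00000031896 (Ctrl) and ENSMUSG00000062478 (Ctrc). The tissue was the fetal pancreas of wild-type C57BL/6 mice at the embryonic days E11.5, E13.5 and E15.5 and, shortly before birth, at E18.5; the series text speaks of its epithelium. Each stage is 1 labelled sample of at least 20000 cells, total RNA was sequenced as cDNA, and the labels do not say how many embryos were pooled or how the epithelium was separated.

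Values are FPKM, read fragments relative to exon length and to a denominator for each library. They are per length and so allow levels of different genes to be set side by side. They were brought to a common scale over 9884 genes that reached 1 FPKM at every stage (factors 0.962 to 1.03). Each deposited value is a mean; for most genes of low or middle level it could be written in exactly 1 way as whole reads of 2 libraries, with about 13700000 to 18000000 reads each. These 8 recovered libraries carry no label, so their spread may be technical. They are numbered arbitrarily, and libraries of different stages are not pairs. The recovered FPKM denominators were not these read numbers. In library 1 it was 18539860 against about 16700000 reads at E11.5, and 12546860 against about 15800000 at E15.5. The deposited values may thus have been adjusted between stages already, which was not tested. The markers of other cells changed with stage: the summed level of 10 erythroid genes was 9796 FPKM at E11.5 and 266 to 639 later, that of 9 neural genes 1251.8 and then 12 to 48.8, and that of 8 islet hormone genes went from 289 to 37085.3. Mesenchymal markers (12 genes) summed to 237 FPKM at E11.5 and 49 to 85 later. Without Vim, the highest of them, the sums in stage order were 124, 7.58, 21.6 and 48.3. The 8 duct markers summed to 203 and then 2018 to 17646, most of it Spp1 (277 to 682 without it). The 9 leukocyte markers summed to 19 to 185 FPKM, but C1qa held most of this after E11.5; without it the sums in stage order were 67.0, 5.70, 8.78 and 23.2. The 9 liver and gut markers summed to 364 to 654, and without Ttr to 609, 42.2, 33.2 and 15.8. Of the 8 endothelial markers 1, Egfl7, reached 1 FPKM at any stage. The 8 summed to 5.2 to 18.7 FPKM, and without Egfl7 to 0.895, 0.1, 0.0783 and 0.234 in stage order. Tie1 was listed at 0 at E15.5 and E18.5, Ins2 at 0 at E11.5, and Sox2 at 0 at E15.5 and E18.5. The part of these cells in the results was not tested. In such bulk samples a change in the number of acinar cells and a change in RNA per cell cannot be told apart.

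Acinar cells make these enzymes as inactive zymogens and store them in granules; after release into the gut, trypsin cuts and activates them. Cela1 is the pancreatic elastase of rodents, Cela2a a second elastase, and Cela3a and Cela3b a pair of close relatives with weak activity on elastin itself. Ctrb1 encodes chymotrypsinogen B, Ctrl a chymotrypsin-like relative, and Ctrc chymotrypsin C, known in humans as a regulator of trypsinogen. The acinar transcription factor complex PTF1 was first described through its binding upstream of elastase, chymotrypsin and amylase genes, at an E-box (CANNTG) paired with a second box.

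The bases just upstream of 4 of the genes are shown because these genes cover the extremes of what follows: a close pair with very different levels (Cela3a and Cela3b), the highest gene (Ctrb1) and the late one (Ctrl). Each run is the 250 bases before the RefSeq start (build GRCm38.p6), 5′ to 3′ on the minus strand, which carries all 7 genes. Capitals mark CACCTG, one form of the E-box, and TGGGAA, the core of the second box, on either strand.
Cela3a, chr4:137409792-137410041: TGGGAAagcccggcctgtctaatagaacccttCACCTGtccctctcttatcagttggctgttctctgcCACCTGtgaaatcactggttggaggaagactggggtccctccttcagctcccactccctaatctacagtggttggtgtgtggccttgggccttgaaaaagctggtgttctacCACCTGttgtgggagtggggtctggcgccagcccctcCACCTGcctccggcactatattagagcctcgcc
Cela3b, chr4:137430521-137430770: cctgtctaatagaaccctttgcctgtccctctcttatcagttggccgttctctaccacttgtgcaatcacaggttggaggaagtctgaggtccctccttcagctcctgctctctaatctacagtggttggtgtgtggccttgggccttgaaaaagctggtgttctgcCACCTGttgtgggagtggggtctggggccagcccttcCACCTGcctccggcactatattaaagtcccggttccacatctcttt
Ctrb1, chr8:111691011-111691260: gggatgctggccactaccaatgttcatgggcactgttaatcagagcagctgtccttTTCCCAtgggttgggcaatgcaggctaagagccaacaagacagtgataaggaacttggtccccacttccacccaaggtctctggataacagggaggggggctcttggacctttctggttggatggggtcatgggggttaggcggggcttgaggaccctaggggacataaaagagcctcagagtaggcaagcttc
Ctrl, chr8:105933863-105934112: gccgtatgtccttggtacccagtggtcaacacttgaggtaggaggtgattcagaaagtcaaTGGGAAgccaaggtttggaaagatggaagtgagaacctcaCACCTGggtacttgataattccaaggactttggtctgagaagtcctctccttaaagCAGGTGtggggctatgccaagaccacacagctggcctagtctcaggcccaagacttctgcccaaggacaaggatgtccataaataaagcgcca

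Of the 7 genes, 6 had a promoter in the RefSeq table, all but Ctrc. The general E-box CANNTG was present in all 6, but it also lay in 66.2% of 32851 promoters of that length. CACCTG, which is one case of CANNTG, was in 5 of 6 (not Ctrb1), against 17.2% of all promoters; Cela3a held 4 copies, Cela3b 2 and Ctrl 2, and 2.06% of all promoters held at least 2. TGGGAA was in Cela2a, Cela3a, Ctrb1 and Ctrl, against 21.6% of all promoters. Both words occurred together, anywhere in the 250 bases, in Cela2a, Cela3a and Ctrl, against 3.91% of all. The nearest CACCTG and TGGGAA began 218 and 85 bases before the start in Cela2a. They began at 218 and 250 in Cela3a, and at 149 and 189 in Ctrl. The GENCODE M21 model of Cela2a starts further upstream than the RefSeq one, at base 141826160 of chromosome 4. The TGGGAA of Cela2a thus lies inside the first GENCODE exon, not before it. Ctrb1 is not in this count, but it held another form of CANNTG at bases 205 to 200 and TGGGAA at 194 to 189. Spacing of the words was not tested. AAGGTCA, a nuclear receptor half-site word of the kind bound by Nr5a2, was in Cela1 alone (4.08% of all), and CATATG was in none of the 6 (3.46% of all). The aligned promoters of Cela3a and Cela3b were 83.3% identical and those of other pairs 43.1% to 49.8%. The last 2 CACCTG copies of Cela3a began 70 and 33 bases before its start, and the 2 of Cela3b began 83 and 46 bases before its own. The windows of the pair are thus offset by 13 bases, and the TGGGAA of Cela3a is at its outer edge, at base 250, so its absence from the Cela3b window says only that these letters are not in those 250 bases. The word matches are descriptions of sequence; no binding was measured.

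The genes sit at 5 places in the mm10 genome (GENCODE M21 models). Cela1 is on chromosome 15 (100674421 to 100687921), Ctrb1 (111686519 to 111691010) and Ctrl (105932003 to 105933862) are far apart on chromosome 8, and the other 4 form 2 pairs on chromosome 4. Cela3a (137401554 to 137409791) and Cela3b (137420999 to 137430540) lie 11208 bases apart, with coding sequences 89.3% identical, while the coding sequences of all other member pairs were 54.2% to 64.5% identical. Of the 50-base windows of the main transcripts, 34.2% in Cela3a and 33.2% in Cela3b occurred in both. A read lying wholly inside such shared sequence cannot be assigned to 1 of them, whereas a longer or paired read might be. Cela2a (141814962 to 141826160) lies inside the span of Ctrc (141814962 to 141846359), with 305 exon bases in common toward the 3′ ends of both, and 25.6% of Cela2a windows occurred in Ctrc. GENCODE M21 lists Ctrc as protein coding, whereas RefSeq lists the mouse gene as a transcribed pseudogene. How reads in shared bases were assigned was not given in sources used here. At E18.5, when about 264335 reads were counted for Cela2a, 43 were counted for Ctrc, so nearly none of the reads from shared exons can have entered the Ctrc value.

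**Figure D1:**
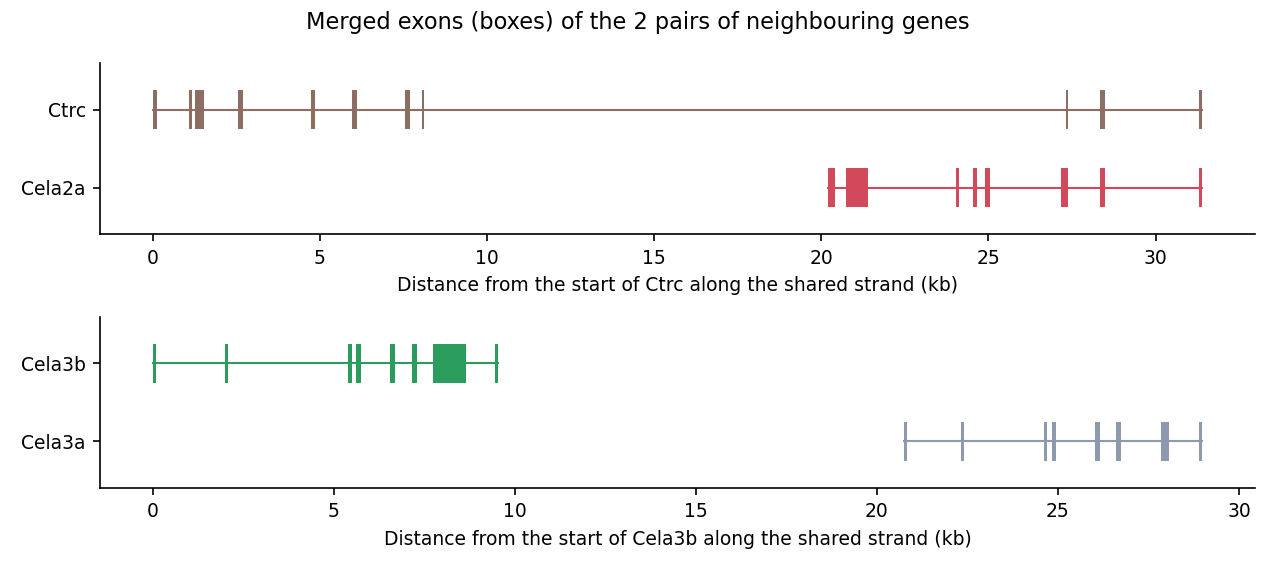
Merged exons (boxes) of Ctrc with Cela2a (upper panel) and of Cela3b with Cela3a (lower panel), against distance in kilobases along the shared strand from the start of the first gene of each pair. The exons of Ctrc at its far end coincide with exons of Cela2a, while Cela3b and Cela3a do not overlap and lie 11208 bases apart.

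By the deposited values the chymotrypsinogen gene Ctrb1 was the most abundant of the 7 from E13.5 on. Its E11.5 level was 0.125 ± 0.0868 FPKM (SD, n = 2 recovered libraries with 3 and 1 reads). The 3 later stages, in order, gave 864, 37973 and 11953 FPKM. Among all genes it ranked 40th, 2nd and 4th in these 3 stages. At E15.5 it alone took 7.26% of all FPKM. Beyond E11.5 its reads were too many for the mean to be split, so these levels have no spread.

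Ctrl, the chymotrypsin-like gene, stayed low until the last stage. Its 2 recovered libraries held 1.13 and 1.31 FPKM at E11.5, and E13.5 had 0.543 and 0.410. E15.5 then had 3.09 and 2.95, and E18.5 had 94.3 and 83.1. The means in stage order were 1.22 ± 0.122, 0.476 ± 0.0943, 3.02 ± 0.101 and 88.7 ± 7.92 FPKM (SD, n = 2 recovered libraries). No stage overlapped another: E13.5 was the lowest and E18.5 stood far above the rest.

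Ctrc was low throughout. It was listed at 0 at E11.5, and the 2 libraries of E13.5 held 0.550 and 0.498 FPKM (15 and 12 reads). Those of E15.5 held 4.68 and 2.89 (86 and 46 reads), and those of E18.5 held 0.818 and 1.54 (15 and 28 reads). E15.5 was the highest stage, and its libraries did not overlap those of any other.

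Among the elastases, Cela1 was the earliest. It stood at 0.981 ± 0.0514 FPKM at E11.5 (SD, n = 2 recovered libraries with 43 and 39 reads), then, stage by stage, at 222, 1723 and 1479.7 FPKM. Cela2a was listed at 0 at E11.5, stood at 2.16 and 2.54 FPKM in the 2 libraries of E13.5, and then at 779 (E15.5) and 5989.7 (E18.5), when it was the 5th highest gene. Cela3b was listed at 0 at E11.5, at 2.83 and 2.70 FPKM in the libraries of E13.5, and then at 556 (E15.5) and 1360.5 (E18.5). Cela1 was thus at its highest by E15.5, whereas Cela2a had most of its level added after that stage.

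Cela3a, whose coding sequence is so close to that of Cela3b, was listed at 0 at E11.5 and E13.5. It stood at 2.35 and 3.56 FPKM at E15.5 (29 and 38 reads) and at 2.52 and 1.47 FPKM at E18.5 (31 and 18 reads), so these stages overlapped. About 22274 reads were counted for Cela3b at E15.5 and about 58019 at E18.5. Because the pair shares sequence, the few reads of Cela3a cannot be told apart from misassigned reads of Cela3b. Where 0 reads were counted, 3 reads over both libraries would have been 0.0875 FPKM for Cela3a at E11.5, 0.0927 for Cela3a at E13.5, 0.0486 for Cela2a, 0.0503 for Cela3b and 0.0587 for Ctrc at E11.5; these limits cover counting error only.

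**Figure D2:**
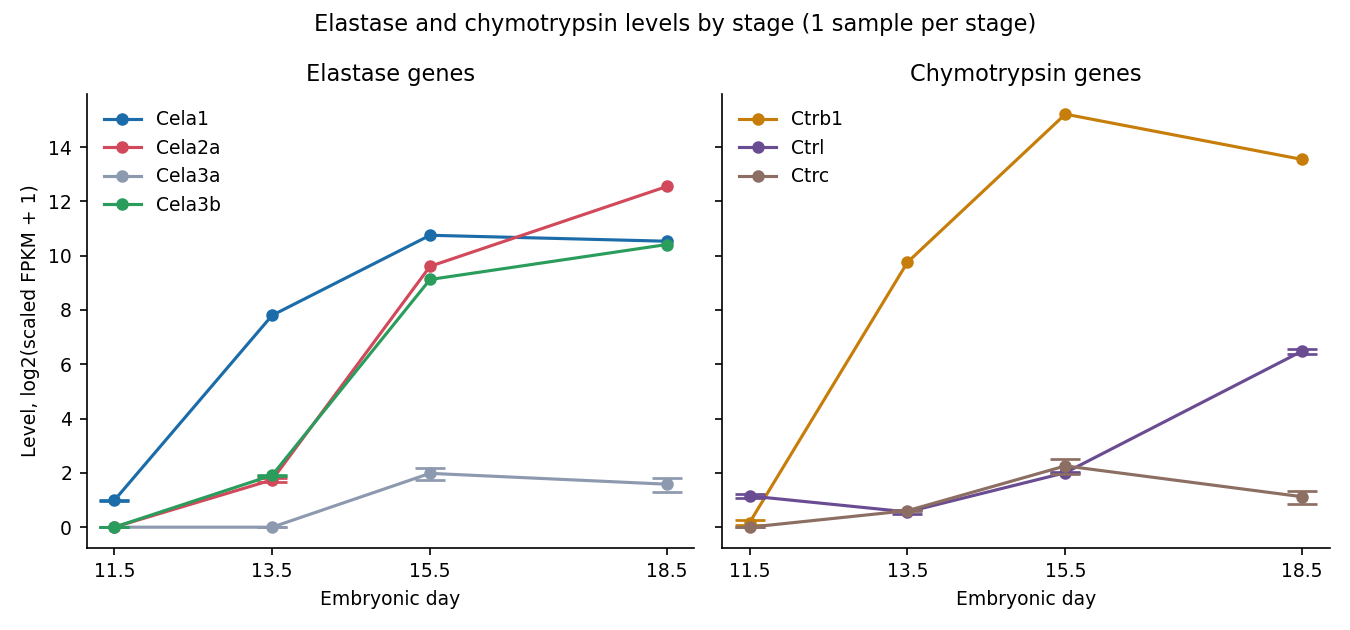
Level of each elastase gene (left) and chymotrypsin gene (right) as log2(scaled FPKM + 1) against embryonic day; points joined by lines are the deposited means after scaling, and short bars mark the 2 recovered libraries where the mean could be split. Ctrb1 peaks at E15.5 (37973 FPKM), Cela2a and Cela3b are highest at E18.5, and Cela3a and Ctrc stay below 5 FPKM.

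The order of the levels by the deposited values was as follows. At E11.5 it was Ctrl, Cela1, Ctrb1, with the other 4 at 0; with the main coding transcript as the length Cela1 (2.04 FPKM) would stand above Ctrl (1.60). At E13.5 it was Ctrb1, Cela1, Cela3b, Cela2a, Ctrc and Ctrl, with Cela3a at 0. Cela2a (5.29) would stand above Cela3b (4.97) with main transcript lengths less the bases shared with Ctrc, and the order would then be that of E15.5. The libraries of Ctrc (0.498 to 0.550) and Ctrl (0.410 to 0.543) overlapped. At E15.5 it was Ctrb1, Cela1, Cela2a and Cela3b, followed by Ctrc, Ctrl and Cela3a, whose means of 3.78, 3.02 and 2.95 FPKM did not differ beyond the range of their libraries. At E18.5 it was Ctrb1, Cela2a, Cela1, Cela3b and Ctrl, followed by Cela3a and Ctrc, whose libraries overlapped. Cela1 and Cela3b had 1479.7 and 1360.5 FPKM at that stage, with no spread available for either.

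These levels depend on the exon length assumed, since the deposited values fit the union of all annotated exons. With the main coding transcript as the length, Cela1 would stand at 463, 3586.5 and 3079.6 FPKM at the last 3 stages, Cela2a at 3.78, 1254.6 and 9645.1, and Cela3b at 4.97, 1000.5 and 2446.2. With the bases shared with Ctrc also left out of its length, Cela2a would reach 13490.6 FPKM at E18.5, above Ctrb1 at 11953. The ratio of 1 gene between stages does not depend on this choice, but calls that need 5 FPKM do, as given with each count.

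Together the 7 genes held, in stage order, 2.33, 1093, 41042 and 20874.5 FPKM, which is 7.56e-04%, 0.323%, 7.85% and 4.51% of all FPKM. Of the summed FPKM of 30 acinar digestive enzyme genes (these 7, 6 trypsinogens and 17 others), they made up 25.4%, 16.9%, 33.1% and 26.0%. Their make-up shifted with stage. The chymotrypsin genes held 57.8%, 79.2%, 92.5% and 57.7% of the 7-gene sum in stage order with the deposited values. With main transcript lengths they would hold 45.8%, 64.8%, 86.7% and 44.3%, so that the elastases would hold the larger share at E11.5 and E18.5. After E11.5 nearly all of that was Ctrb1, with 79.1%, 92.5% and 57.3%. Over those 3 stages Cela2a went from 0.215% to 1.90% and 28.7%, while Cela1 held 42.2%, 20.3%, 4.2% and 7.09% over all 4. Cela3b held 0.253%, 1.36% and 6.52% at the last 3 stages.

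**Figure D3:**
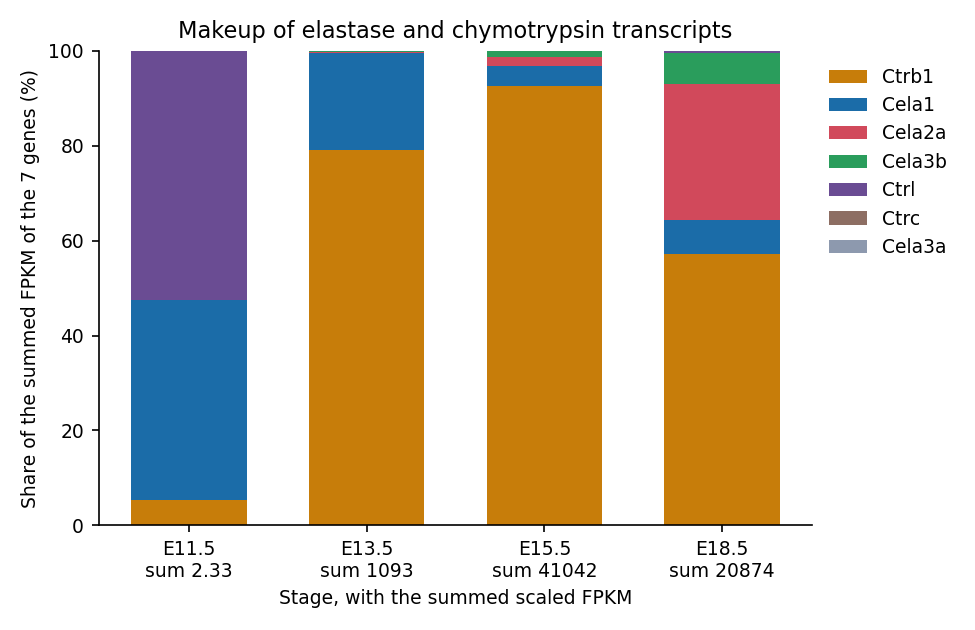
Share of each gene in the summed scaled FPKM of the 7 genes (percent, stacked bars from 0 to 100) by stage, with 1 labelled sample a stage and no error bars. Ctrb1 fills 92.5% of the E15.5 bar; in the last bar the elastases together hold 42.3%, most of it Cela2a with 28.7%.

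Between E11.5 and E13.5 the early pair Cela1 and Ctrb1 passed from traces to high levels. With 1 labelled sample a stage there is no replicate check of these differences, so genes were called by size: a difference of at least 1 in log2(scaled FPKM + 1) the larger of the 2 reaching 5 FPKM. By this rule 2 of the 7 were higher at E13.5 (background 5.77% of 14841 genes that reached 1 FPKM at any stage) and 0 were lower (background 5.73%). With main transcript lengths less the shared bases, Cela2a would be called too, making 3. Cela1 differed by 6.82, a ratio of 226.5. Ctrb1 differed by 9.59, a ratio of 6913; its E11.5 level rests on 4 reads, and their exact Poisson 95% interval of 1.09 to 10.2 reads, which covers counting error only, puts the ratio between 2700 and 25372. Against 3 reads at E11.5, Cela2a was at least 48.3-fold higher, Cela3b at least 54.9-fold and Ctrc at least 8.92-fold, all below 5 FPKM at both stages. The median log2 difference of the 7 was 1.74, or 5.59 with the genes at 0 set to their lower bounds, against -0.03 over all measured genes.

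The recovered libraries allowed limma's moderated test, with Benjamini-Hochberg adjustment over 11791 genes, for the 3 members split in all 8 libraries. Between E11.5 and E13.5 Ctrl fell by 0.59 on the log2 scale (SE 0.0829, adjusted p = 9.25e-04, background 36.3% lower), and Ctrc rose by 0.61 (SE 0.214, adjusted p = 0.0437, background 29.4% higher). The call for Ctrc was lost whenever 1 of the 4 libraries of these stages was left out (adjusted p 0.114 to 0.152 in limma). Cela3a had 0 reads in all 4. Over the 12100 genes split at the compared stages, Cela2a rose by 1.74 (SE 0.0904, adjusted p = 1.21e-04) and Cela3b by 1.91 (SE 0.0715, adjusted p = 4.21e-05) in limma, against a background of 30.4% higher; there too Ctrl was lower (background 35.9%). With so large a share of all genes called, a call by this test says little of these members in particular.

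Between E13.5 and E15.5 each of the 7 had a higher value at the later stage. By the rule of size 4 were higher, namely Cela1, Cela2a, Cela3b and Ctrb1 (background 3.64%), and 0 were lower (background 1.48%). With main transcript lengths Ctrc, then at 5.68 FPKM, would be called higher as well, making 5. The differences were 7.86 for Cela2a (a ratio of 332), 7.21 for Cela3b (201.3), 5.46 for Ctrb1 (43.9) and 2.95 for Cela1 (7.75). The gene that led at E13.5 among the elastases thus had the smallest ratio of these 4, and the pair at 2.35 and 2.76 FPKM at E13.5 had the largest. The median difference was 2.95, or 4.99 with Cela3a at its lower bound, against 0 over all measured genes. Cela3a rose from 0 reads, to at least 31.9-fold higher, by 1.97 on the log2 scale in limma (SE 0.200, adjusted p = 4.73e-04). Ctrl rose by 1.45 (limma adjusted p = 6.73e-05) and Ctrc by 1.62 (limma adjusted p = 0.00125), against a background of 27.5% higher; 0 members fell (background 24.8%).

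Scaling every stage to the same total FPKM, acinar enzymes included, moved the median of all genes at this step by 0.41 downward. The calls over all genes went from 540 higher and 219 lower to 192 higher and 1380 lower. With acinar enzymes and haemoglobins left out of the total, the median at this step was -0.158, with 330 higher and 450 lower. At E13.5 against E11.5 the full total gave 807 higher and 1209 lower in place of 857 and 851. At E18.5 against E15.5 it gave 1063 higher and 539 lower in place of 933 and 823. The medians at E13.5 against E11.5 were -0.136 with the full total and -0.146 with the reduced one. At E18.5 against E15.5 they were 0.152 and 0.0782. The part of the acinar enzymes alone in these shifts was not tested. The members called by size, and their directions, were the same at each step with either total.

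Between E15.5 and E18.5 the genes parted. By the rule of size 3 were higher, Cela2a, Cela3b and Ctrl (background 6.29%), and 1 was lower, Ctrb1 (background 5.55%). With main transcript lengths Ctrc would be called lower as well, making 2. Cela2a differed by 2.94, a ratio of 7.69, and Cela3b by 1.29, a ratio of 2.44. Ctrb1 differed by -1.67 and was 3.18-fold lower, and Cela1 by -0.22. In the recovered libraries Ctrl rose by 4.48 (limma adjusted p = 2.39e-06, background 38.1% higher), from 84 reads in both libraries to 2626; the ratio of scaled FPKM was 29.4. Ctrc fell by 1.13 (limma adjusted p = 0.00374, background 27.7% lower). Cela3a differed by -0.41 (limma adjusted p = 0.119), and without the higher E18.5 library, with 31 reads, by -0.66 (limma adjusted p = 0.0287). The median difference of the 7 was -0.22, against 0.04 over all measured genes.

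**Figure D4:**
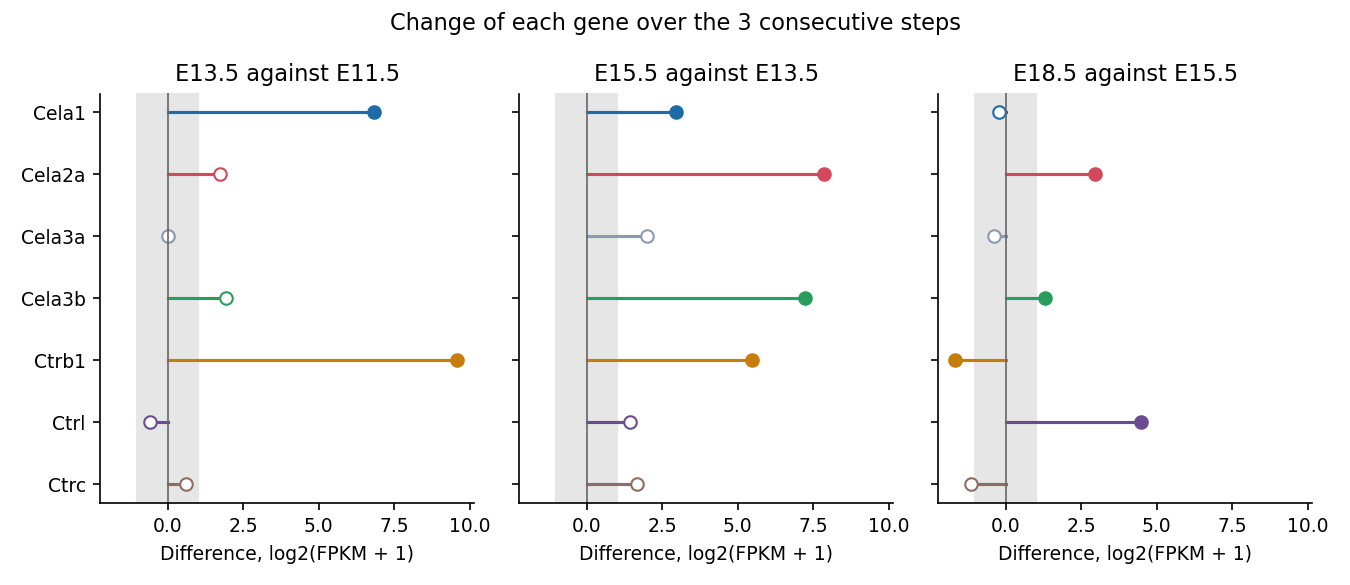
Difference in log2(scaled FPKM + 1) of each gene at the 3 successive steps, with differences under the threshold of 1 shaded; filled points pass the rule of size and open points do not. Ctrb1 and Cela1 have their largest step first, Cela2a and Cela3b at E15.5 against E13.5, and Ctrl at E18.5 against E15.5, where Ctrb1 is at -1.67.

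From E11.5 to E18.5, 5 of the 7 were higher (background 10.4%) and 0 lower (background 7.55%). Ctrb1 differed by 13.38, Cela1 by 9.55 and Ctrl by 5.34, and the ratio for Ctrl was 72.75. Cela2a was at least 123149-fold higher than 3 reads at E11.5 would be, and Cela3b at least 27030-fold. In limma Ctrl rose by 5.34 (adjusted p = 1.33e-07), Cela3a by 1.56 (adjusted p = 4.59e-04) and Ctrc by 1.10 (adjusted p = 0.00336), against a background of 36.6% higher, and 0 fell (background 35.7%). Cela3a and Ctrc nonetheless stood at 2.0 and 1.18 FPKM at E18.5.

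The genes closest in profile were found by Euclidean distance between centred log2 profiles over the 4 stages, among 7822 genes that reached 5 FPKM; with 4 points a small distance is a description. For Ctrb1 the nearest were the lipase-related gene Pnliprp1 (0.655) and then, at some distance, colipase Clps (2.03) and Cel (3.41). For Cela2a they were the amylase Amy2a1 (1.18), carboxypeptidase Cpb1 (1.54) and the trypsinogen Try5 (1.81), and for Cela3b Amy2a3 (0.926), Amy2a1 (1.12) and the trypsinogen Prss3 (1.18). Cela1 was nearest to Reg1 (1.28), Tmed6 (1.51) and Serpini2 (1.52), and Ctrl to the sulfotransferase Sult1a1 (0.765), the zymogen granule gene Cuzd1 (0.942) and Gas6 (0.964). The low genes had neighbours that are not acinar enzymes: Nfkbiz and Nfkbia for Cela3a (0.233 and 0.253) and mt-Rnr1, Itprid2 and Ctdsp1 for Ctrc (0.169 to 0.224). The 1 FPKM added before the logarithm flattens profiles this low, and candidates had to reach 5 FPKM. These neighbours therefore cannot show whether Cela3a and Ctrc are unlike the acinar enzymes. With 0.1 FPKM added, Ctrc differed by 2.64 at E13.5 against E11.5, in place of 0.6074. Among the members themselves Cela3a and Ctrc were 0.783 apart, Cela2a and Cela3b 1.82, and Cela1 and Ctrb1 3.86.

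Of the coding genes next to the members and outside the family, the highest was Cdc42, beside Cela3a, at 196 to 255 FPKM. Ctrl lies 225 bases from Pskh1, a kinase gene at 6.48, 9.41, 5.69 and 9.2 FPKM over the 4 stages, and 1873 bases from the proteasome gene Psmb10, at 6.27, 12.5, 20.4 and 28.1. Ctrb1 lies 15508 bases from Zfp1, at 11 to 14.9 FPKM, and Cela1 lies 4868 bases from Bin2, which was at 4.66 FPKM at E11.5 and 0.127 to 0.185 later. Efhd2, next to the Cela2a and Ctrc pair, went from 33.3 to 79.1 FPKM.

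Other genes of acinar secretion moved in partly different steps. For the lists here and below, the background at the 3 steps was 5.77%, 3.64% and 6.29% higher. It was 5.73%, 1.48% and 5.55% lower, and the median differences over all measured genes were -0.03, 0 and 0.04. Of 6 trypsinogens, whose near-identical copies make single values uncertain, 2, 6 and 3 were higher at the 3 successive steps and 0, 0 and 1 lower. Prss1, a trypsinogen, was at 0, 0.570, 1696 and 1237 FPKM over the stages, Try5 at 0, 9.39, 1491 and 3571, and Try10 at 0, 0.691, 1265 and 619. Of 17 other digestive enzymes, 7, 15 and 8 were higher and 0, 0 and 3 lower. The carboxypeptidase gene Cpa1 (2.21, 1538.9, 7935.2 and 1647.4 FPKM) was already high at E13.5 and lower at E18.5 than at E15.5, as was Ctrb1, whereas Amy2a1 (0, 0.807, 505 and 1914) was at its highest at E18.5, as was Cela2a. Pnliprp1 reached 47606.7 FPKM at E15.5, above Ctrb1, and 27830.5 at E18.5. The median differences at the 3 steps were 0.85, 4.40 and 1.22 for these 17 genes and 0.70, 7.84 and 0.98 for the trypsinogens. With genes at 0 set to their lower bounds, the medians of the first step were 4.92 and 2.64.

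**Figure D5:**
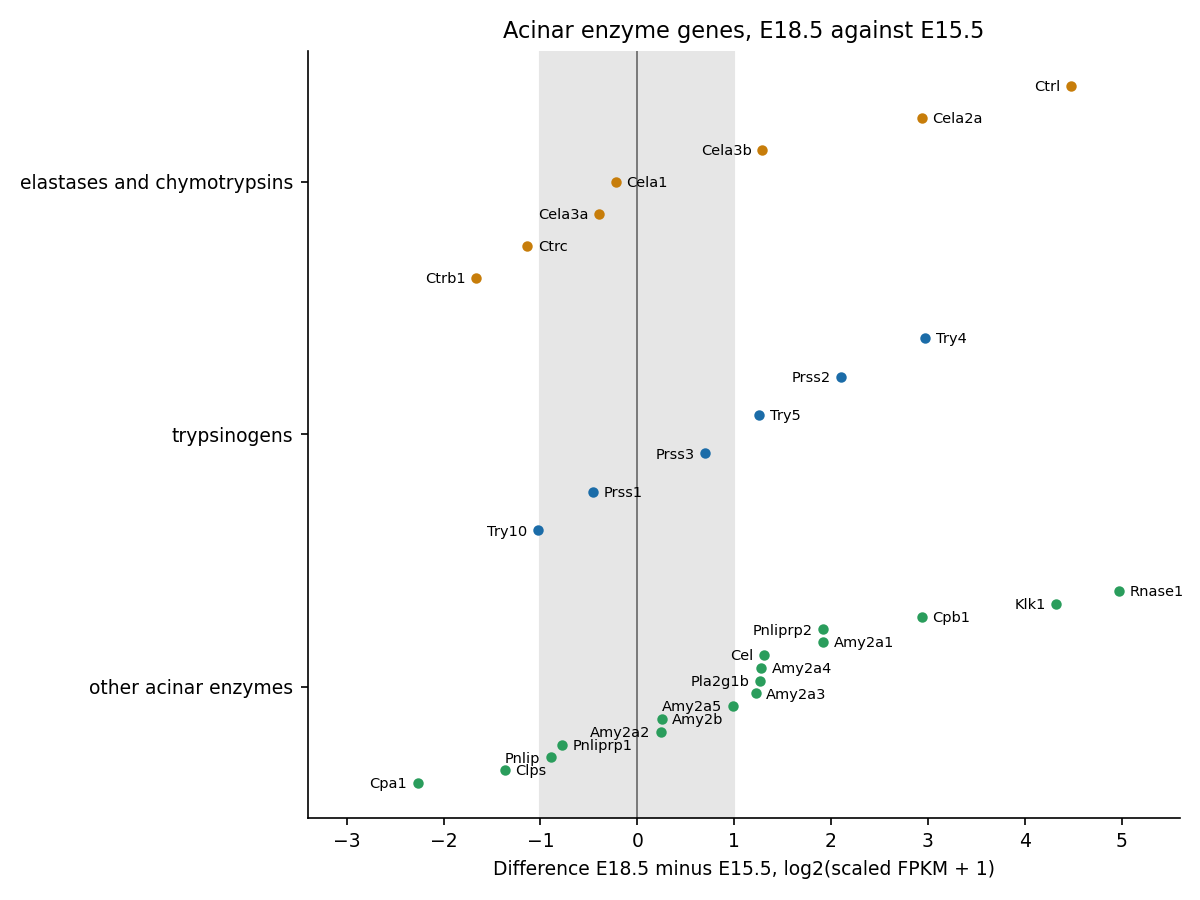
Difference in log2(scaled FPKM + 1) between E18.5 and E15.5 of the acinar digestive enzyme genes reported here, each point 1 gene, in 3 groups ordered by value, with differences under 1 shaded. Ctrb1 at -1.67 lies on the same side as Cpa1 at -2.27, and Ctrl is at 4.48.

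Protease inhibitors hold such enzymes in check. Of 11 of their genes, 8, 3 and 0 were higher at the 3 steps and 0, 4 and 6 lower, with median differences of 2.48, -0.12 and -1.55. Spink1, the trypsin inhibitor of zymogen granules, was at 0.396, 26.3, 275 and 39.0 FPKM, and the serpin Serpini2 at 0, 77.7, 591 and 180.4. Serpina1b (18.47, 108, 27.9 and 3.70) and Serpina1c (1.55, 56.4, 30.2 and 2.49), genes of alpha-1-antitrypsin, an inhibitor of neutrophil elastase, were highest at E13.5; they are near-identical copies, and liver cells make them too. The 4 lower inhibitors at E15.5 against E13.5 were all Serpina1 copies.

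The list of 13 transcription factors of acinar cells also held factors that are not specific to these cells. In it, 11, 4 and 0 were higher and 0, 0 and 5 lower (medians 2.42, 0.31 and -0.52). Ptf1a, a DNA-binding subunit of PTF1, was at 0.603, 30.4, 119 and 22.2 FPKM, and Bhlha15, a factor of secretory cell maturation, at 0.119, 7.13, 41.8 and 11.51. Gata4 was at 3.47, 13.96, 24.1 and 3.83, and Xbp1, a factor of the secretory pathway, at 51.2, 169, 319 and 187.4. Ptf1a, Bhlha15 and Gata4 are named because they were lower at E18.5 than at E15.5, so their E15.5 maximum is no finding about the list. Others of the 13, named after their values were seen, were highest at E18.5 (Gata6 at 16.3 FPKM, Foxa2 at 61.5 and Mnx1 at 11.6) or at E13.5 (Prox1 at 10.8). These others are not specific to acinar cells, so their values do not describe acinar cells alone.

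Of 16 genes of the zymogen granule and its release, 5, 8 and 7 were higher and 0, 0 and 2 lower (medians 0.57, 1.14 and 0.77; 1.0 for the first with genes at 0 at their bounds). Sycn, a zymogen granule protein, was at 0, 4.33, 94.7 and 533 FPKM, highest at E18.5, while the cholecystokinin receptor Cckar (0.548, 70.5, 169 and 45.4) and the water channel Aqp8 (2.49, 0.637, 89.6 and 36.4) were highest at E15.5. Blood cells carry elastase and chymotrypsin-like enzymes of their own. The list of 12 such genes also held other proteases, among them Cpa3, a carboxypeptidase gene. Of the 12, 0, 0 and 2 were higher and 0 lower at these steps. The 2 were Cma1 and Cpa3, the latter going from 2.01 to 5.97 FPKM. The neutrophil elastase gene Elane was at 0.702, 0, 3.9 and 0 FPKM and the mast cell chymase gene Cma1 at 0, 0, 2.93 and 8.85. Both were far below Ctrb1, Cela1, Cela2a and Cela3b at E15.5 and E18.5.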

How the data were processed

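The deposited values are FPKM per gene, 1 column a stage, which the authors named as averages; reads were aligned to mm10 with HISAT2 2.0.5, per the submitters' processing notes. The counting tool and annotation were not given in sources used here. Gene identifiers were matched to symbols with GENCODE M21 (54495 of 54532).

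Stages were scaled by the median ratio over genes at 1 FPKM or more at all 4 stages, and differences taken on log2(scaled FPKM + 1), which understates the change of low genes. FPKM times union exon length was split into whole reads of 2 libraries where a single pair of read numbers matched the printed value (to 0.75 of its last place) and chance would give 0.05 pairs or fewer; 96.4% to 96.6% of genes attempted were split. limma 3.58.1 (R 4.3.3) was run on these libraries with its trend option and a threshold of 0.05; split and test were checked on simulated data. The p-values measure only the spread between recovered libraries.

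The named genes are the 7 members, the 3 genes nearest in profile to each, the nearest coding gene on each side, and from each list the highest gene, the one with the largest difference at E15.5 against E13.5 and those lower at E18.5 against E15.5, at most 4 a list; 2 of these genes are not reported here. Members and lists were chosen with earlier results of these data known. Promoters come from RefSeq.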

Additional observations from a re-analysis of the deposited data

How the results depend on the processing

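Over the counts of members higher or lower at each step and the limma counts, 121 of 132 alternative values stayed within 1.5 times the reported count and 11 did not. With no minimum level, 4 members in place of 2 were higher at E13.5 against E11.5, and 7 in place of 4 at E15.5 against E13.5. Of all 14841 measured genes, 1294 in place of 857 and 762 in place of 540 were then higher. Without that minimum, 2 members in place of 1 were lower at E18.5 against E15.5, and 1109 in place of 823 of all measured genes. With a fold of 4 in place of 2, 0 members were lower there, and 100 of all measured genes. In limma at E13.5 against E11.5, 2 members were called (background 29.4% higher and 36.3% lower), and 1 to 2 when 1 library was left out. Over genes split at the compared stages 4 were called (background 30.4% higher and 35.9% lower). The members called by size were the same under every scaling tried, of which no scaling keeps the deposited denominators. Scaling to the same total FPKM moved the median of all genes to -0.41 at E15.5 against E13.5 and to -0.46 at E18.5 against E11.5, where it gave 977 genes higher and 2798 lower in place of 1544 and 1120. Lengths were tried that were chosen after seeing the data. With the main transcript as length, with or without the shared bases, 2 members in place of 1 were lower at E18.5 against E15.5; Ctrl against Cela1 at E11.5 went from 0.31 to -0.35 in log2, and with the bases shared with Ctrc also left out, Cela3b against Cela2a at E13.5 went from 0.24 to -0.0898 and Ctrb1 against Cela2a at E18.5 from 1.0 to -0.17. With both lengths the chymotrypsin share fell below that of the elastases at E11.5 and E18.5 (45.8% and 44.3%, or 45.8% and 38.8% without the shared bases). No paired analysis was possible because each stage is 1 labelled sample and the recovered libraries carry no number. Depth limits the low genes: Cela3a and Ctrc rest on 132 reads or fewer a stage.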
